A study of Mus musculus with 4 samples.

Results

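The genes described here are the cyclins, the cyclin-dependent kinases (CDKs), the inhibitors of these kinases and the E2F and Rb family genes that carry cells through the cell cycle. They were taken by symbol from the deposited table. All 36 symbols were found among its 21881 genes, and 35 of them reached the mean of 1 FPKM required for a test, among 11346 genes tested.

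The 4 mRNA libraries came from mesenchymal stem cells of adult mouse bone marrow, a fibroblast-like cell type, of strain C57BL/6. Clone 12 and clone 6 are immortalised lines, each grown from a single cell and each with Dicer f/f, a conditional allele of the microRNA-processing enzyme that is labelled wild type in all libraries. Each clone received the puromycin-resistant pMMP-puro retrovirus with Flag-HA-tagged NR6A1 (n = 2 libraries) or the same virus as vector control (n = 2). NR6A1 (also called GCNF) belongs to the nuclear receptors without a known ligand and represses pluripotency genes when embryonic cells differentiate. The labels used here do not say how the lines were immortalised, and several methods in common use act on the Rb or p53 pathway. A clone stands for 1 line, and no repeat culture of a clone under the same virus was analysed here.

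As background, cells pass from G1 into S phase when D-type cyclins with CDK4 or CDK6, and then E-type cyclins with CDK2, phosphorylate the pocket proteins RB1, RBL1 and RBL2. This frees E2F factors, bound to a DP partner, to drive genes of DNA synthesis. INK4 proteins block CDK4 and CDK6, and CDKN1B (p27) blocks CDK2 complexes. A-type and B-type cyclins with CDK2 and CDK1 then take the cell through S phase, G2 and mitosis, gated by WEE1 kinase and CDC25 phosphatases.

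The targeted gene followed its labels. Nr6a1 was at 598 and 783 FPKM in the NR6A1 libraries of clone 12 and clone 6, against 2.80 and 4.18 FPKM in the vector libraries. Of the 10 mesenchymal and fibroblast markers, 9 reached 1 FPKM in some library. Vim, an intermediate filament gene, was between 1964 and 2404 FPKM in all libraries, while the surface marker Thy1 was listed at 0 in 3 libraries and at 0.0297 FPKM in the vector library of clone 6. Summed levels of 6 blood markers were 2.20 and 2.64 FPKM in NR6A1 libraries and 2.43 and 2.07 FPKM in vector libraries, of which Cd68, a lysosomal gene also read in other cells, made up most. The 4 endothelial and 4 epithelial markers never passed 0.182 FPKM. Inferred depth, from the spacing of low values, was about 20700000 and 21300000 reads for the NR6A1 libraries of clone 12 and clone 6, and 23100000 and 24500000 for the vector libraries. It is an estimate: 42.7% to 44.3% of values under 10 inferred reads were whole to within 0.1, where evenly spread values give 20%. The depth and a length shift were chosen to bring these same values closest to whole reads, so part of that excess is built in.

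The lines expressed the machinery of cycling cells at high level. By mean FPKM, 6 of the 36 genes stood at 100 or more, 23 between 10 and 100, 6 between 1 and 10, and Ccna1 below 1. The median of their means was 33.2 FPKM, and 27 of the 35 tested genes lay above the median tested gene. Cdk4, the kinase partner of D-type cyclins, was the most abundant with a mean of 447 FPKM, above 98.3% of genes tested. Cdkn2a, whose products p16INK4A and p19ARF restrain CDK4/6 and protect p53, came next with 371 FPKM, above 97.9% of genes tested. Cyclin A2 (Ccna2, mean 186 FPKM), the E2F partner Tfdp1 (139 FPKM), Cdk1 (124 FPKM) and cyclin B1 (Ccnb1, 112 FPKM) made up the rest of the top group. High messages of G1 inhibitors and of S-phase and mitotic cyclins were thus read in the same 4 libraries. Ccna1, the germ cell A-type cyclin, was at 0.107 and 0.0415 FPKM in the NR6A1 libraries of clone 12 and clone 6, against 0.0318 and 0.0651 FPKM in the vector libraries. These are about 3.29, 1.32, 1.10 and 2.38 inferred reads, and no difference was detectable at this depth.

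**Figure D1:**
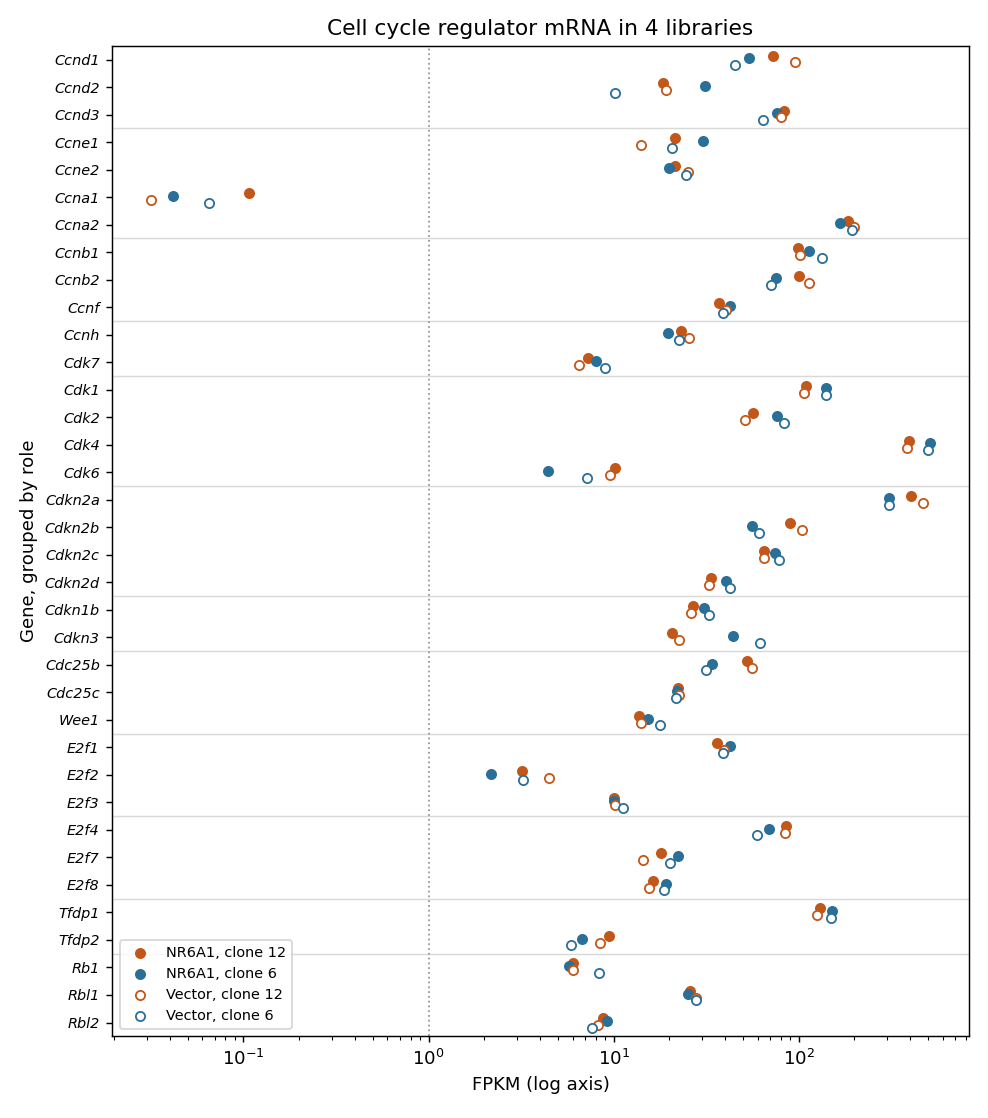
FPKM on a log axis for the 36 genes (rows, grouped by role with grey lines) in each of the 4 libraries; filled circles are NR6A1 libraries, open circles vector libraries, orange clone 12 and blue clone 6, and the dotted line is 1 FPKM. Cdk4 and Cdkn2a lie farthest right, Ccna1 is the gene left of the line, and for many genes the circles sort by colour (clone) rather than by filling (virus). Of the 35 tested genes, both clone 12 values lay above both clone 6 values in 11 and below them in 13. The shares over all genes tested were 37.7% and 30.3%, so this sorting is not particular to these genes.

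The comparison of viruses asked whether raised NR6A1 goes with a change in this machinery. None of the 35 tested genes passed the threshold between NR6A1 and vector libraries (limma with clone as a block, Benjamini-Hochberg adjusted p from 0.235 to 0.997), where 0.0353% of all genes tested passed. Without adjustment, 3 of the 35 had p under 0.05, a share of 8.57% where all genes tested gave 8.48%. Fitted changes were under 0.25 log2 units in size for 29 of 35 genes, with a median of -0.018, and the median over all genes tested was 0.00099. Of all 11346 genes tested, 9653 had changes under 0.25 log2 units. The median size of change was 0.114 for the 35 genes and 0.0961 over all genes tested. By direction, 10 genes were higher and 13 lower with NR6A1 in both clones, while 28.9% and 29.4% of all genes tested were so. In 2 genes both NR6A1 libraries lay above both vector libraries, and in 6 both lay below, where the shares over all genes tested were 9.68% and 10.7%. None of the 35 differed by 1.5-fold or more the same way in both clones, as 1.45% of all genes tested did. The 95% intervals of the fitted changes had a median half-width of 0.243 log2 units, with a range of 0.194 to 1.14, and a change within that width could not be told from 0.

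The comparison of clones gave a different count. Between clone 12 and clone 6, with virus as a block, 11 of 35 genes (31.4%) passed, 6 higher and 5 lower in clone 12, where 21.9% of all genes tested passed (limma adjusted p of the 11 from 0.0185 to 0.0493). At an unadjusted p under 0.05 there were 21 of 35 (60.0%), against 41.1% of all genes tested. The split of 6 higher and 5 lower was 4 and 5 with upper quartile scaling and 3 and 5 with quantile normalization. Higher in clone 12 were Ccnb2, Cdkn2a, Cdkn2b, Cdc25b, E2f4 and Tfdp2, and lower were Ccne1, Cdk1, Cdk2, Cdk4 and Cdkn3. The median fitted difference of the 35 genes was -0.067 log2 units, against 0.035 over all genes tested. Both clone 12 libraries lay above both clone 6 libraries in 11 genes and below them in 13, against shares of 37.7% and 30.3% of all genes tested. Cdkn2b, Cdkn3 and Cdc25b differed by at least 1.5-fold the same way under both viruses, as 10.9% of all genes tested did. In bulk RNA, fewer cells in a phase of the cycle and less message per cell cannot be told apart. Markers of the lines differed between the clones as well: of the 9 mesenchymal and fibroblast markers tested, Ly6a and Cd44 were higher in clone 12, and Col1a1 and Pdgfra were lower. Ly6a, which encodes the surface protein Sca-1, was at 125 and 9.31 FPKM with NR6A1 in clone 12 and clone 6, against 317 and 18.98 FPKM with vector (3.803 ± 0.12 log2 units SE for clone 12 over clone 6, limma adjusted p = 0.00362). The fitted clone differences were 0.53 for Cd44, -1.30 for Col1a1 and -0.84 for Pdgfra, and the 10 markers summed to 4270 and 4090 FPKM in the NR6A1 and vector libraries of clone 12, against 5280 and 5620 FPKM in those of clone 6. Their part in the cell cycle differences was not tested. This contrast sets 1 line against another, with the 2 viruses in the place of repeats. With the vector library of either clone, or the NR6A1 library of clone 12, left out, 0 of the 35 genes were called by limma (10 to 13 had an unadjusted p under 0.05). Without the NR6A1 library of clone 6, 4 were called (Ccnd2, Cdc25b, Cdkn3 and E2f4). These fits had no block. Testing all genes with no filter left none called (20 at an unadjusted p under 0.05), and removing the variance trend left Ccne1, Cdc25b, Cdkn2b and Cdkn3.

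**Figure D2:**
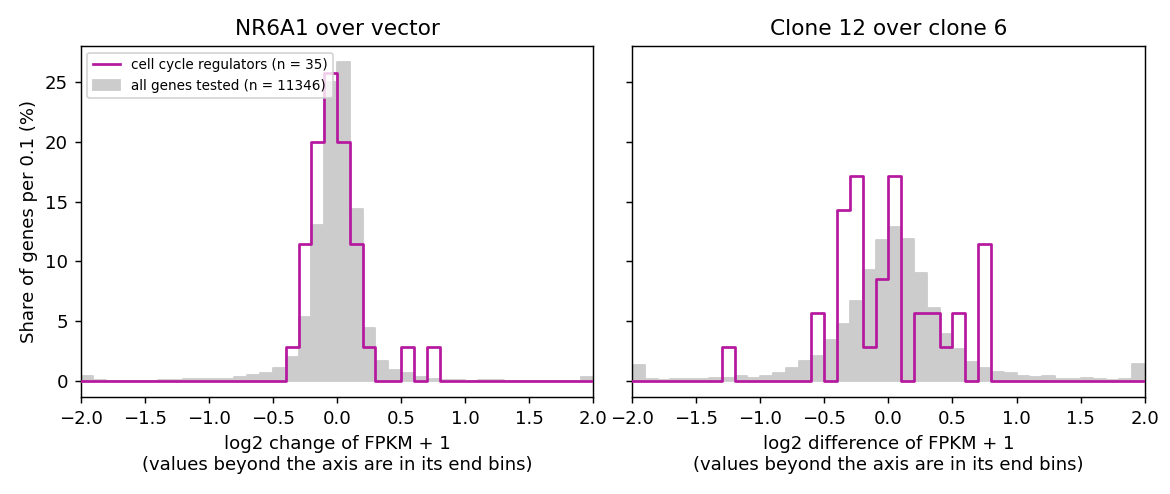
Share of genes (percent per 0.1 log2 units) by fitted change for NR6A1 over vector (left) and fitted difference for clone 12 over clone 6 (right); the purple line is the 35 cell cycle regulators and the grey area all 11346 genes tested, with values beyond 2 log2 units counted in the end bins. The purple line follows the grey area around 0 on the left, with medians of -0.018 and 0.00099, and reaches -1.23 (Cdkn3) on the right.

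Among D-type cyclins, which link growth signals to CDK4/6, the message was spread over all members. Ccnd1 was at 72.2 and 54.2 FPKM in the NR6A1 libraries of clone 12 and clone 6, against 94.9 and 45.3 FPKM in the vector libraries. Clone 12 was higher under both viruses, by 0.41 log2 units with NR6A1 and 1.05 with vector (fitted 0.73 ± 0.18 SE), but this missed the threshold (limma adjusted p = 0.0593). Ccnd2 was at 18.5 and 31.3 FPKM with NR6A1 in clone 12 and clone 6, against 19.3 and 10.2 FPKM with vector. The change with NR6A1 was thus -0.05 log2 units in clone 12 and 1.53 in clone 6, and the fit gave 0.74 ± 0.41 (SE, limma adjusted p = 0.651, 95% interval -0.41 to 1.88). The groups overlap, and clone 6 alone carries the difference. Ccnd3 was at 83.5 and 76.7 FPKM with NR6A1, against 80.3 and 64.4 FPKM with vector. Ccnd3 gave 47.9% and 47.3% of the summed D-type cyclin FPKM in the NR6A1 libraries of clone 12 and clone 6, against 41.3% and 53.7% in the vector libraries. The share of Ccnd2 was 10.6% and 19.3% with NR6A1, against 9.90% and 8.51% with vector, so the NR6A1 library of clone 6 stood apart. The 3 genes summed to 174.2 and 162.2 FPKM with NR6A1, against 194.5 and 120 FPKM with vector, and clone 12 had more under both viruses.

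The kinases of this step were unequal in level. Cdk4 was at 392 and 509 FPKM with NR6A1 in clone 12 and clone 6, against 387 and 501 FPKM with vector. The values pair by clone almost exactly. The fitted change with NR6A1 was 0.02 log2 units (95% interval -0.18 to 0.23), while Cdk4 was lower in clone 12 by 0.37 ± 0.07 log2 units (SE, limma adjusted p = 0.0413). Cdk6, the related kinase, was at 10.2 and 4.42 FPKM with NR6A1 and 9.58 and 7.16 FPKM with vector, so Cdk4 exceeded it 38.4 and 115-fold with NR6A1 and 40.4 and 69.9-fold with vector, on the FPKM scale. Cdk6 was higher in clone 12 under both viruses (fitted 0.71 ± 0.19, adjusted p = 0.0729), and its NR6A1 library of clone 6 was the lowest of the 4.

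Among the INK4 inhibitors, 2 of 4 genes were called between clones, where 21.9% of all genes tested were, and none between viruses. Cdkn2a was at 402 and 306 FPKM with NR6A1 in clone 12 and clone 6, against 471 and 306 FPKM with vector. Cdkn2b, which encodes the related inhibitor p15INK4B from the neighbouring gene, was at 89.5 and 55.7 FPKM with NR6A1, against 104 and 61.2 FPKM with vector. Both clone 12 libraries stood above both clone 6 libraries in each gene, as in 37.7% of all genes tested. Clone 12 was higher by 0.51 ± 0.09 log2 units for Cdkn2a (SE, limma adjusted p = 0.0375) and by 0.71 ± 0.07 for Cdkn2b (adjusted p = 0.0193). The Cdkn2a call was lost with quantile normalization. Cdkn2c (p18INK4C) went the other way without passing, at 64.6 and 74.3 FPKM with NR6A1 and 65.3 and 78.5 FPKM with vector (fitted -0.23 ± 0.07 for clone 12 over clone 6, adjusted p = 0.0919). Cdkn2d (p19INK4D) was likewise at 33.8 and 40.3 FPKM with NR6A1 and 32.8 and 42.5 FPKM with vector (-0.31 ± 0.08, adjusted p = 0.063). The 4 INK4 genes summed to 589.6 and 476.3 FPKM with NR6A1 in clone 12 and clone 6, against 672.6 and 488.4 FPKM with vector. Cdkn2a made up 68.1% and 64.3% of that sum with NR6A1, against 70.0% and 62.7% with vector. The Cdkn2a value pools p16INK4A and p19ARF messages, so the INK4 part of this sum and share is not known. Between viruses the fitted changes of the 4 genes ran from -0.17 (Cdkn2b) to -0.02 (Cdkn2d) log2 units and none passed.

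Cdkn2a has 1 value for the gene, whose products start at separate promoters and share later exons in different reading frames, so p16INK4A and p19ARF cannot be told apart in these values. The 250 bases before each start are shown with that of Cdkn2b, because these starts decide which inhibitor is made. Sequences are from RefSeq, build GRCm38.p6, 5′ to 3′ along the gene, with capitals for an E2F motif (TTTCCCGC, TTTCGCGC, TTTGCCGC or TTTGGCGC) or a CHR element (TTTGAA or TTCGAA, the cell cycle element of mitotic genes), searched on both strands. They are Cdkn2a at the upstream start (chr4:89294620-89294869, minus strand), Cdkn2a at the downstream start (chr4:89282193-89282442, minus strand) and Cdkn2b (chr4:89311033-89311282, minus strand).
Cdkn2a upstream start: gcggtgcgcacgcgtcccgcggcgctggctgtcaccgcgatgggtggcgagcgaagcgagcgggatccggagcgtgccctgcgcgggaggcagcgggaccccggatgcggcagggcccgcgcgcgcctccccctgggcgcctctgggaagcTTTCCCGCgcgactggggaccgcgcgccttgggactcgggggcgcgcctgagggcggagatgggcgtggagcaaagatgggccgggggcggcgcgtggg
Cdkn2a downstream start: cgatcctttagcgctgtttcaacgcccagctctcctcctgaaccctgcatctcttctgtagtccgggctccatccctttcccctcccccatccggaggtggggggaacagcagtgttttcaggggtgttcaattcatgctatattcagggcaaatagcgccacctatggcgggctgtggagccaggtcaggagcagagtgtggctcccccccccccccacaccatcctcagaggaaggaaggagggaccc
Cdkn2b: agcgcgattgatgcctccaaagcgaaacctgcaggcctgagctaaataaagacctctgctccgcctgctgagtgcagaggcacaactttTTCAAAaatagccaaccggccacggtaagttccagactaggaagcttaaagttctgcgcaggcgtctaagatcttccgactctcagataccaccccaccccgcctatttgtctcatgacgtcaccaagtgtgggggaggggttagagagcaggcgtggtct
The upstream Cdkn2a window held an E2F motif and the downstream window none, and the Cdkn2b window held a CHR element.

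Cdkn1b (p27), the inhibitor of CDK2 complexes, was at 26.8 and 30.7 FPKM with NR6A1 in clone 12 and clone 6, against 26.1 and 32.9 FPKM with vector, and passed in neither contrast. Cdkn3, a phosphatase gene whose product removes the activating phosphate of CDKs, had the largest clone difference of the 35 genes. It was at 20.7 and 44.1 FPKM with NR6A1, against 22.6 and 61.7 FPKM with vector. Clone 12 was lower by 1.23 ± 0.11 log2 units (SE, limma adjusted p = 0.0185). Both clone 12 values lay below both clone 6 values, as in 30.3% of all genes tested. The fitted change with NR6A1 was -0.30 ± 0.11, lower in both clones, with adjusted p = 0.616.

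**Figure D3:**
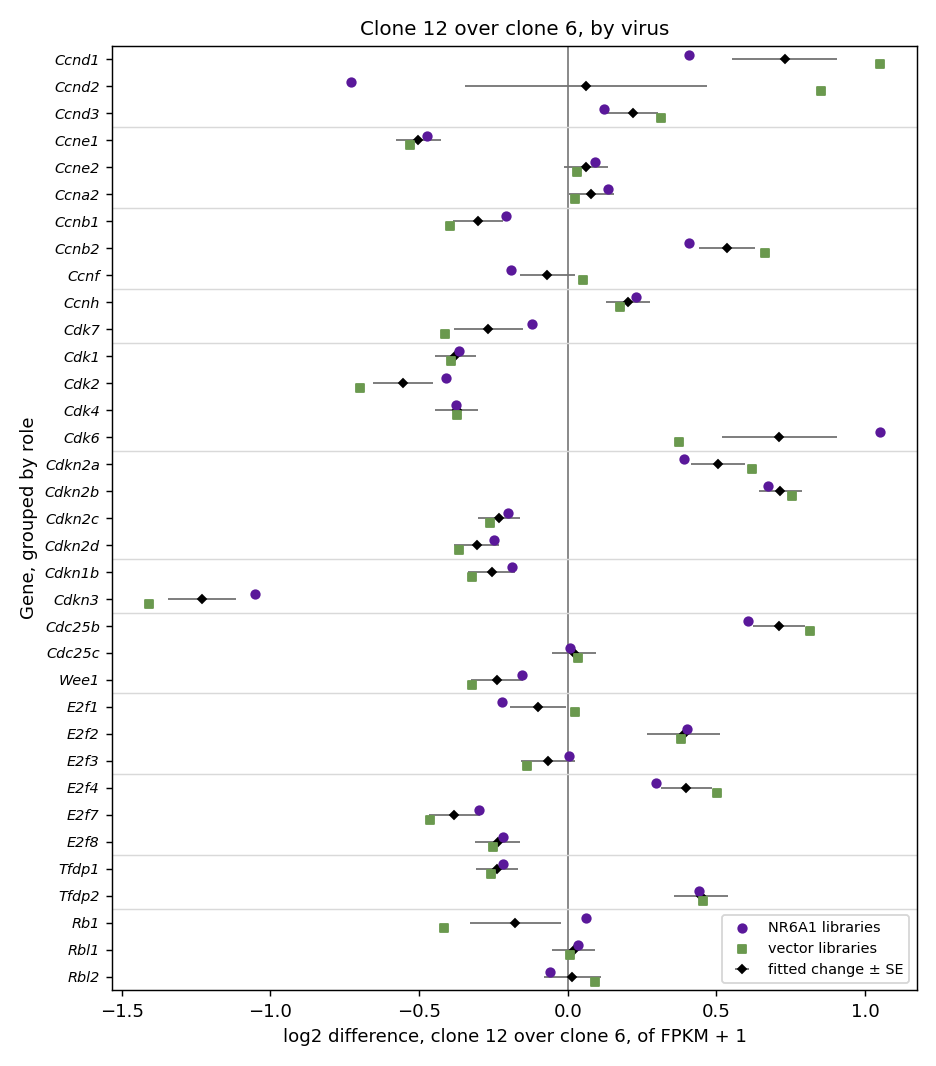
Difference in log2(FPKM + 1) between clone 12 and clone 6 for the 35 tested genes (rows, grouped by role); purple circles compare the NR6A1 libraries, green squares the vector libraries, and black diamonds with bars give the fitted difference and its SE. Cdkn3 lies farthest left at -1.23, Cdkn2a, Cdkn2b, Ccnb2, Cdc25b, E2f4 and Tfdp2 lie right of 0 under both viruses, and Ccnd2 lies on opposite sides of 0.

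Among E-type cyclins, which activate CDK2 at the G1/S border, Ccne1 had the lowest p of the 35 genes for NR6A1. It was at 21.5 and 30.3 FPKM with NR6A1 in clone 12 and clone 6, against 14.0 and 20.7 FPKM with vector. NR6A1 was higher by 0.58 log2 units in clone 12 and 0.53 in clone 6, and the fit gave 0.56 ± 0.07 (SE, 95% interval 0.35 to 0.76), but it did not pass over all genes (unadjusted p = 0.00194, limma adjusted p = 0.235, and 0.0925 to 1 under the other settings). Ccne1 was also lower in clone 12 by 0.50 ± 0.07 (limma adjusted p = 0.0286). Both NR6A1 libraries lay above both vector libraries, as in 9.68% of all genes tested. The margin of Ccne1 was narrow, at 21.5 FPKM in the NR6A1 library of clone 12 and 20.7 FPKM in the vector library of clone 6. Ccne2, its close relative, was at 21.4 and 20.02 FPKM with NR6A1, against 25.2 and 24.6 FPKM with vector, a fitted change of -0.26 ± 0.07 (unadjusted p = 0.0266, adjusted p = 0.532). Ccne2 was lower and Ccne1 higher in both clones, and the ratio of Ccne1 to Ccne2 FPKM was 1.01 and 1.51 in NR6A1 libraries of clone 12 and clone 6, against 0.556 and 0.839 in vector libraries. That ratio restates these opposite changes, neither of which passed, and adds no separate evidence. Annotated exons of Ccne2 overlap those of the integrator gene Ints8 on the other strand.

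Cdk2, the partner of these cyclins, was at 56.9 and 76.0 FPKM with NR6A1 in clone 12 and clone 6, against 51.1 and 83.5 FPKM with vector. It was lower in clone 12 by 0.55 ± 0.10 log2 units (SE, limma adjusted p = 0.0372), while its fitted change with NR6A1 was 0.01 ± 0.10. Cdk1, the kinase of mitosis, was at 109 and 141 FPKM with NR6A1, against 106 and 140 FPKM with vector. It was lower in clone 12 by 0.38 ± 0.07 (adjusted p = 0.0377) and its fitted change with NR6A1 was 0.03 ± 0.07. Of the 4 CDKs, Cdk1, Cdk2 and Cdk4 were thus lower in clone 12, and Cdk6 did not pass, where 21.9% of all genes tested were called. Annotated exons of Cdk2 overlap those of Pmel, and those of Cdk4 overlap Tspan31, on the other strand. The promoter windows of Cdk1 (chr10:69352913-69353162, minus strand) and Cdk2 (chr10:128705052-128705301, minus strand) are shown because they carry the motifs named above, again in capitals. The windows of Cdk4, Ccne1, Cdc25b and Tfdp2, genes also called between clones, held neither motif. A link between these motifs and the clone differences was not tested.
Cdk1: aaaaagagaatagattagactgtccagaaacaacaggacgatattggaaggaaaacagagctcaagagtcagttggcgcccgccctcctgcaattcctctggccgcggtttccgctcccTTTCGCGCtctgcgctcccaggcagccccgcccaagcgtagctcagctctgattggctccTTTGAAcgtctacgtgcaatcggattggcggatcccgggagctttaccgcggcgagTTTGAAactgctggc
Cdk2: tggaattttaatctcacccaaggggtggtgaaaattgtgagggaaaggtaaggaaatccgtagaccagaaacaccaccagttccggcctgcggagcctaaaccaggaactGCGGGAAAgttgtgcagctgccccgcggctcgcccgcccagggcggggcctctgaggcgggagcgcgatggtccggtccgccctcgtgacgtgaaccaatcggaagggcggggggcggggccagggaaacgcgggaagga

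Of the S-phase and mitotic cyclins, 1 gene was called between clones, where 21.9% of all genes tested were, and none between viruses. Ccna2 was at 184 and 167 FPKM with NR6A1 in clone 12 and clone 6, against 198 and 195 FPKM with vector. Its fitted change was -0.17 ± 0.07 log2 units (SE, limma adjusted p = 0.641). It was lower in both clones and with no overlap between viruses, as in 10.7% of all genes tested. Ccnb1 was at 98.9 and 114 FPKM with NR6A1, against 101 and 133 FPKM with vector, and Ccnb2 at 100.2 and 75.3 FPKM with NR6A1, against 113 and 70.9 FPKM with vector. These B-type cyclins, both partners of CDK1, stood in opposite order between clones. Ccnb2 was higher in clone 12 by 0.54 ± 0.09 (adjusted p = 0.036), and Ccnb1 had a fitted difference of -0.30 ± 0.08 (adjusted p = 0.0771). Pseudogenes of Ccnb1 and Ccnb2 are annotated, and how reads were shared with them is not given in the sources used here. Ccnf, a cyclin that is an adaptor of a ubiquitin ligase, was at 37.2 and 42.6 FPKM with NR6A1, against 40.6 and 39.1 FPKM with vector.

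Ccnb2 and Cdkn3 were called in opposite directions between the clones, and both promoter windows (chr9:70421555-70421804, minus strand, and chr14:46760291-46760540, plus strand) hold a CHR element, shown in capitals.
Ccnb2: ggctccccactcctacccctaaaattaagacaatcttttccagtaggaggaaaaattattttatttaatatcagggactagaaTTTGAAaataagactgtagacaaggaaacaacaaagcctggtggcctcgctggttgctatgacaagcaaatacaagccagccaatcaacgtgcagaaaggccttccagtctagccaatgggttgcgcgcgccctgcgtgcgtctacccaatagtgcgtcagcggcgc
Cdkn3: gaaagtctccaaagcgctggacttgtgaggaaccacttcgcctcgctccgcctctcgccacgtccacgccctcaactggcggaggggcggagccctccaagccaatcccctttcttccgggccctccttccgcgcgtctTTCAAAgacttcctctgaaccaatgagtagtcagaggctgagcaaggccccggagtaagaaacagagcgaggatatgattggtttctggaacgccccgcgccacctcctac
A promoter window was at hand for 27 of the 36 genes. Of these 27, 7 held an E2F motif (25.9%), against 2.2% of the 27025 genes with a window, and 9 held a CHR element (33.3%), against 19.6%. The TCAAGGTCA element bound by NR6A1 was found in 0 of the 27 and in 0.4% of all genes with a window. Such a match is a description of these letters in this window.

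Among the CDC25 and WEE1 genes, which switch CDK1 on and off, 1 of 3 was called between clones, where 21.9% of all genes tested were. Cdc25b, a phosphatase that activates CDK1, was at 52.5 and 34.1 FPKM with NR6A1 in clone 12 and clone 6, against 56.2 and 31.6 FPKM with vector, higher in clone 12 by 0.71 ± 0.09 log2 units (SE, limma adjusted p = 0.0231). Cdc25c, its relative, was between 21.8 and 22.4 FPKM in all 4 libraries, with a fitted NR6A1 change of 0.0041 (95% interval -0.20 to 0.21). Wee1, which opposes them, was at 13.7 and 15.4 FPKM with NR6A1, against 14.0 and 17.8 FPKM with vector. Of the CDK-activating kinase, Ccnh was at 23.1 and 19.6 FPKM with NR6A1, against 25.6 and 22.5 FPKM with vector, and Cdk7 at 7.27 and 7.99 FPKM with NR6A1, against 6.51 and 8.996 FPKM with vector. None of Cdc25c, Wee1, Ccnh and Cdk7 passed in either contrast. Annotated exons of Cdc25b overlap those of Spef1 on the other strand.

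**Figure D4:**
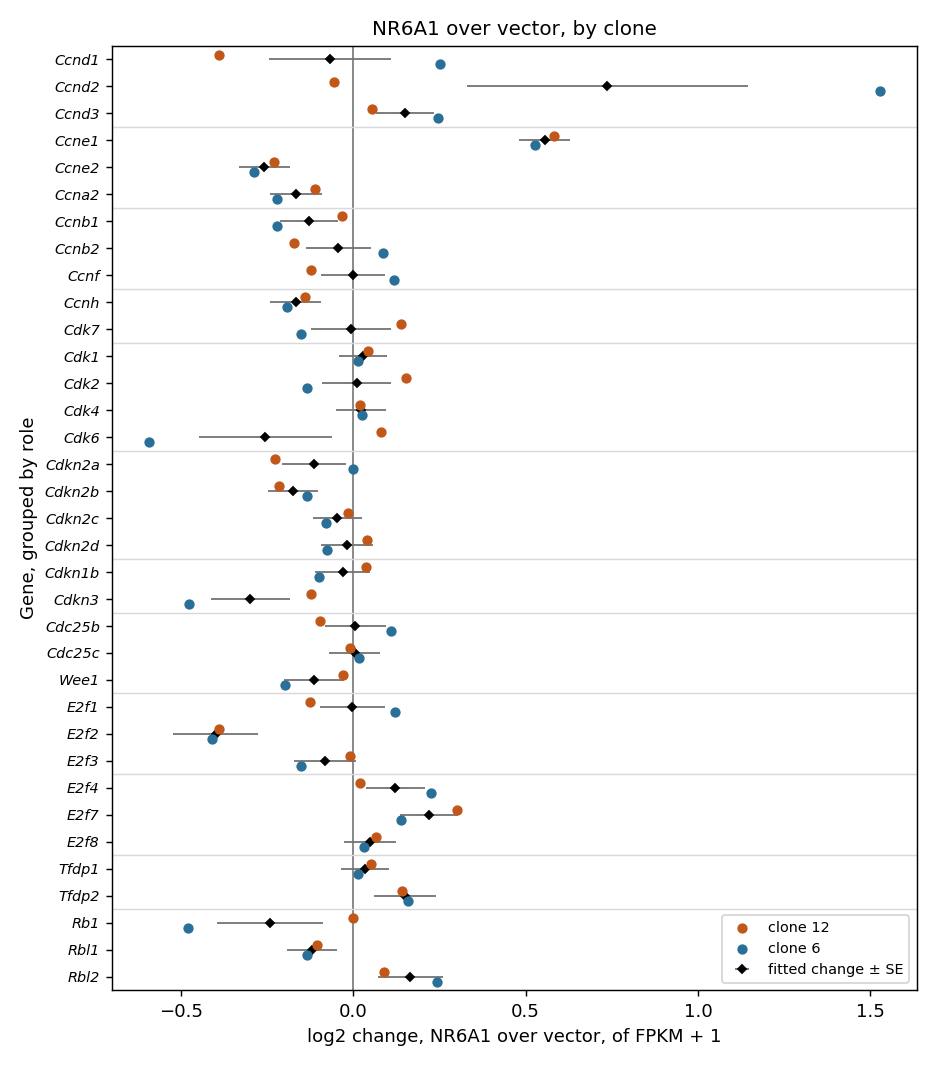
Change in log2(FPKM + 1) between NR6A1 and vector libraries for the 35 tested genes (rows, grouped by role); orange circles are clone 12, blue circles clone 6, and black diamonds with bars the fitted change and its SE. Most points lie within 0.25 log2 units of 0, Ccne1 lies right of 0 in both clones (0.58 and 0.53), and Ccnd2 lies at -0.05 in clone 12 and 1.53 in clone 6.

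Of the activator E2Fs, E2f1 was at 36.2 and 42.3 FPKM with NR6A1 in clone 12 and clone 6, against 39.5 and 38.8 FPKM with vector, and E2f3 at 10.1 in both NR6A1 libraries, against 10.2 and 11.3 FPKM with vector. E2f2 was the lowest of the 35 tested genes, at 3.21 and 2.19 FPKM with NR6A1 and 4.50 and 3.23 FPKM with vector, or about 299 and 210 inferred reads with NR6A1 and 469 and 357 with vector. It was lower with NR6A1 by 0.39 log2 units in clone 12 and 0.41 in clone 6 (fitted -0.40 ± 0.12 SE, unadjusted p = 0.0331, limma adjusted p = 0.553). E2f4, the repressor that binds pocket proteins in resting cells, was at 85.5 and 69.5 FPKM with NR6A1, against 84.4 and 59.3 FPKM with vector. It was higher in clone 12 by 0.40 ± 0.09 (adjusted p = 0.0493), a call lost with upper quartile or quantile scaling and with the filter raised to 5 FPKM. E2f7 and E2f8, repressors that act late in S phase, were both read lower in clone 12, without passing. E2f7 was at 18.02 and 22.4 FPKM with NR6A1 and 14.4 and 20.3 FPKM with vector (fitted -0.38 ± 0.09 for clone 12 over clone 6, adjusted p = 0.0517, and called with that filter), and E2f8 at 16.4 and 19.2 FPKM with NR6A1 and 15.6 and 18.8 FPKM with vector.

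The DP partners were unequal, as the D-type kinases were. Tfdp1 was at 129.8 and 151 FPKM with NR6A1 in clone 12 and clone 6, against 125 and 149.6 FPKM with vector. Tfdp2 was at 9.46 and 6.72 FPKM with NR6A1, against 8.48 and 5.92 FPKM with vector, and was higher in clone 12 by 0.45 ± 0.09 log2 units (SE, limma adjusted p = 0.0433; this call too was lost with either other scaling and with that filter). Tfdp1 exceeded Tfdp2 13.7 and 22.5-fold with NR6A1 and 14.8 and 25.3-fold with vector, on the FPKM scale. Tfdp1 had a fitted clone difference of -0.24 ± 0.07 (adjusted p = 0.0851).

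The pocket protein genes differed in level, with means of 26.6 FPKM for Rbl1, 8.46 FPKM for Rbl2 and 6.54 FPKM for Rb1. Rb1, the retinoblastoma gene, was at 6.03 and 5.73 FPKM with NR6A1 in clone 12 and clone 6, against 6.04 and 8.38 FPKM with vector, so that the vector library of clone 6 stood above 3 alike libraries. Cdkn2a exceeded Rb1 66.7 and 53.4-fold in NR6A1 libraries of clone 12 and clone 6 and 78.0 and 36.5-fold in vector libraries, on the FPKM scale. Rbl1 (p107), an E2F target itself, was at 25.8 and 25.2 FPKM with NR6A1, against 27.8 and 27.7 FPKM with vector, and Rbl2 (p130), the pocket protein of resting cells, at 8.80 and 9.22 FPKM with NR6A1, against 8.21 and 7.63 FPKM with vector. Rbl1 made up 62.8% to 66.2% of the summed pocket protein FPKM over the 4 libraries. No pocket protein gene passed in either contrast, and the fitted NR6A1 changes were -0.24 ± 0.15 (Rb1), -0.12 ± 0.07 (Rbl1) and 0.17 ± 0.10 (Rbl2) log2 units (SE).

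Related cell cycle genes were read as lists beside this machinery. No gene of the 6 lists passed between NR6A1 and vector in limma, and at an unadjusted p under 0.05 there were 3 of 11 genes in the quiescence list and 0 in the others, where 8.48% of all genes tested had such a p. The median fitted changes were -0.024 for 22 genes of replication licensing and origin firing, -0.03 for 23 S-phase enzymes, -0.03 for 24 mitotic genes, -0.0063 for 7 genes of the DREAM and MuvB complexes, -0.039 for 20 CDK partners and ubiquitin ligase adaptors and 0.017 for 11 quiescence and growth arrest genes. The most abundant of the mitotic list were Ube2c and Birc5. Ube2c was at 226 and 244.8 FPKM with NR6A1 in clone 12 and clone 6, against 239 and 245 FPKM with vector. In the DREAM list the most abundant were the histone-binding gene Rbbp4 and the mitotic factor gene Foxm1, and Foxm1 was at 51.2 and 52.9 FPKM with NR6A1, against 47.8 and 50.2 FPKM with vector.

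Between clones the lists differed in their share of calls, where 21.9% of all genes tested passed. In clone 12 the licensing genes Cdt1 and Orc3 and the S-phase genes Rfc5 and Rpa2 were higher, 2 of 22 and 2 of 23. Cdt1, which loads the MCM helicase, was at 100.2 and 73.3 FPKM with NR6A1 in clone 12 and clone 6, against 114 and 63.9 FPKM with vector (0.64 ± 0.12 log2 units SE, limma adjusted p = 0.0383). Fzr1 and Fbxo5, an activator and an inhibitor of the anaphase-promoting complex, were both lower in clone 12 (2 of 20), and no mitotic, DREAM or MuvB gene passed. The median clone difference was 0.17 for licensing, 0.10 for S-phase and -0.048 for mitotic genes, where all genes tested had 0.035. Of 11 quiescence and growth arrest genes, 4 were higher in clone 12 (Gas1, Btg1, Ndrg1 and Dyrk1b) and 1 lower, the growth factor gene Gas6, at 10.8 and 92.4 FPKM with NR6A1 in clone 12 and clone 6, against 16.6 and 156 FPKM with vector (-3.07 ± 0.08, adjusted p = 0.00286).

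**Figure D5:**
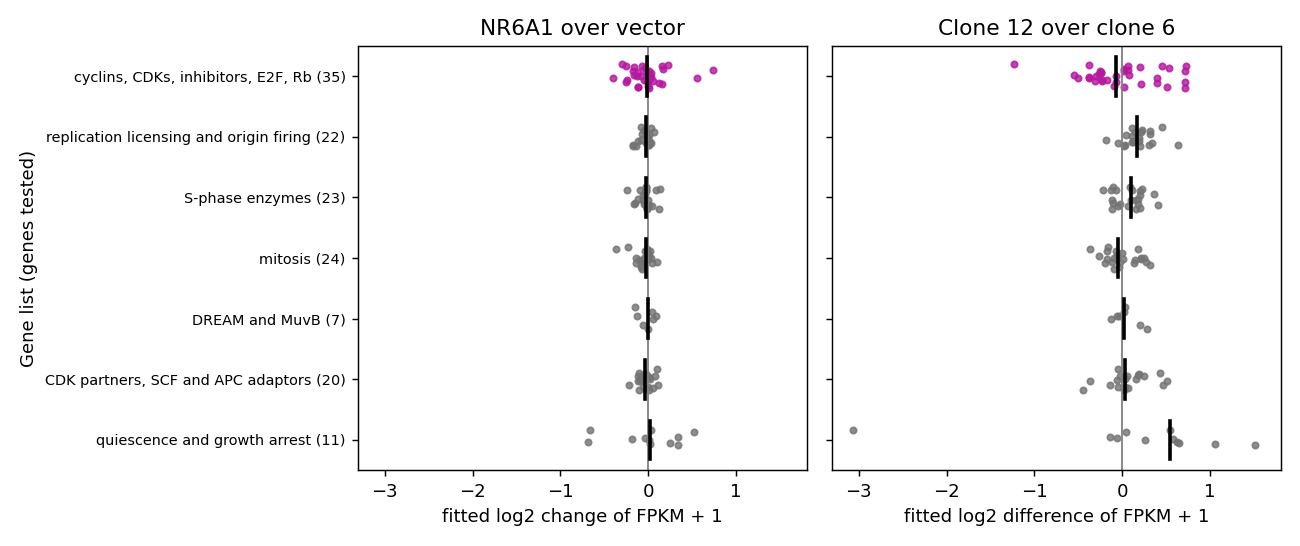
Fitted change for NR6A1 over vector (left) and fitted difference for clone 12 over clone 6 (right), in log2 units of FPKM + 1, for the 35 cell cycle regulators (purple) and the tested genes of 6 related lists (grey, number of genes in brackets); each point is a gene and each black bar a median. The medians on the left lie within 0.04 of 0, and on the right the points spread wider, with Gas6 at -3.07.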

How the data were processed

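Polyadenylated RNA of 4 libraries was measured. The authors deposited FPKM values, which scale fragments by transcript length and library size, 1 per gene symbol and library. TopHat 1.2.0, Cufflinks 1.0.3 and build mm9 are named per the submitters' processing notes, and which annotation was used, and whether counting used strand, is not stated in them or in the labels. Of the 36 genes, 17 have exons in GENCODE M21 that overlap another annotated gene, for example Cdk4 with Tspan31 and Ccna2 with Exosc9, so reads of both can be mixed. Among the genes called between clones, Cdk2 (with Pmel), Cdk4 and Cdc25b (with Spef1) have such overlaps.

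The test used log2(FPKM + 1) of the 11346 genes whose mean over the libraries reached 1 FPKM, which understates changes of low genes. Both contrasts came from a single limma 3.58.1 fit in R 4.3.3 with virus and clone as terms and a variance trend, two-sided, with Benjamini-Hochberg adjustment over all genes at 0.05. The protocol gave each clone both viruses, so same-numbered libraries are the same line. Clone differences under NR6A1 and under vector correlated across genes with r = 0.628 (0.873 without short RNA genes). The fit had 1 residual and 2.9 prior degrees of freedom. With no repeat cultures, p-values measure how alike the 2 lines, or the 2 viruses, behaved, and a clone by virus difference cannot be tested. On simulated data (10 runs, 200 changed genes, 11346 genes), 64.9% of 2-fold and 92.4% of 4-fold changes by virus were recovered. Of the calls, 7.63% were false. The simulated noise was drawn from the variance model of this same fit, and no clone by virus difference was simulated. The shares thus hold for data that meet the model, and are not measured error rates of the real libraries. Recovery was read for these 2-fold and 4-fold changes only, so the shares do not measure power for smaller changes. Most fitted NR6A1 changes of the cell cycle genes were under 0.25 log2 units in size, and recovery at that size was not tested.

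Inferred reads used 1823 genes of a single annotated length of at least 1500 bases, shortened by 230 bases, from GENCODE M21 transcripts of a later build, and the longest coding transcript of each gene. Genes were chosen, and lists made, with earlier results of these data known. All 36 genes are named, and from each list genes past the threshold or otherwise the most abundant. The alternatives were other pseudocounts (0.1 and 5), filters, scalings and priors, no block, short RNA genes removed, each library left out, and a false discovery rate of 0.1.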

Additional observations from a re-analysis of the deposited data

Results flagged for a closer look

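For 15 of the 35 tested genes the direction was opposite in the 2 clones (12 genes, NR6A1 over vector) or under the 2 viruses (6 genes, clone 12 over clone 6), with 3 genes in both sets. The difference was not tested, since it is the residual of the fit, and several of these values lie close to 0. Opposite directions were also common over all 11346 genes tested, in 4661 between the clones and in 2232 between the viruses. They are thus not particular to the 35 genes. The value given is the NR6A1 change of clone 12 minus that of clone 6, in log2 units. Ccnd2 stood farthest, at -1.58 (NR6A1 changes of -0.05 and 1.53), and the NR6A1 library of clone 6 was its highest. The differences of the other D-type step genes were 0.674 for Cdk6 and -0.642 for Ccnd1, and that of Rb1 was 0.478. Values for Cdk7 (0.291), Cdk2 (0.288), Ccnb2 (-0.257), E2f1 (-0.246), Ccnf (-0.242) and Cdc25b (-0.206) were smaller. The smallest were those of Rbl2 (-0.153), E2f3 (0.141), Cdkn1b (0.136), Cdkn2d (0.118) and Cdc25c (-0.028).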

How the results depend on the processing

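No gene of the 36 was called between NR6A1 and vector under any setting run (0 to 4 had an unadjusted p under 0.05). Over all genes, 4 were called for NR6A1 with the settings of the report, 7 with a pseudocount of 5, 2 with no filter, 38 with a robust prior, 51 without short RNA genes, 25 at a false discovery rate of 0.1, and 0 with any library left out. Between clones, 2490 genes and 11 of the 36 were called, 0 and 0 with no filter (5360 and 20 at an unadjusted p under 0.05), 1581 and 4 with no variance trend, 4163 and 21 at a false discovery rate of 0.1, and 41 to 889 and 0 to 4 with a library left out. The count of 11 became 8 with no replicate block or with quantile normalization, 9 with upper quartile scaling and 16 without short RNA genes. With a filter at 5 FPKM it became 10 (4 higher, 6 lower), without E2f4 and Tfdp2 and with E2f7. All 11 were among those called without short RNA genes. The block follows from the design, and removing it ended the calls of Ccne1, E2f4 and Tfdp2. The median NR6A1 change of the 35 genes ran from -0.079 to 0.000097 with a library left out.

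Near-zero values changed sign with scaling. With upper quartile scaling the clone differences were -0.024 (Cdc25c), -0.026 (Rbl1) and -0.027 (Rbl2), with quantile normalization -0.009973, -0.022 and -0.027, and the NR6A1 change of Cdk7 became 0.014. Fits with a library left out have no block, so virus and clone mix in them, and 32 of 70 gene values changed sign in at least 1. For NR6A1 over vector these ran, in log2 units, as follows: Ccnd1 -0.59 to 0.46, Ccnd3 -0.0058 to 0.31, Ccnb1 -0.33 to 0.07013, Ccnb2 -0.37 to 0.29, Ccnf -0.10 to 0.093, Cdk7 -0.21 to 0.20, Cdk1 -0.17 to 0.22, Cdk2 -0.34 to 0.36, Cdk4 -0.17 to 0.21, Cdk6 -0.78 to 0.27, Cdkn2a -0.42 to 0.20, Cdkn2b -0.55 to 0.20, Cdkn2c -0.18 to 0.085, Cdkn2d -0.20 to 0.17, Cdkn1b -0.19 to 0.13, Cdkn3 -1.003 to 0.40, Cdc25b -0.40 to 0.41, Cdc25c -0.014 to 0.022, Wee1 -0.27 to 0.047, E2f1 -0.11 to 0.11, E2f4 -0.13 to 0.37, E2f7 -0.012 to 0.45, E2f8 -0.078 to 0.17, Tfdp1 -0.095 to 0.16, Tfdp2 -0.077 to 0.38. For clone 12 over clone 6 they were Ccnd2 -0.70 to 0.83, Ccne2 -0.082 to 0.20, Ccna2 -0.031 to 0.19, E2f3 -0.14 to 0.0093, Rb1 -0.42 to 0.063, Rbl1 -0.046 to 0.087, Rbl2 -0.11 to 0.14. The cause was not tested beyond this construction. E2f2, the lowest of the 35 tested genes, had about 210 inferred reads in its lowest library, and with 2 libraries a group their number limits the precision.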
